A study of Mus musculus with 14 samples.

Results

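Serpinh1, P4ha1, P4ha2, Plod1, Plod2, Pcolce, Bmp1, Loxl2, Loxl3 and Leprel2 encode proteins that fold, modify, trim and cross-link collagen. These 10 genes, among the 22430 genes in the count table, were chosen by name, with no measured value in the rule. Earlier results of these data were known when they were chosen, so the choice was not blind to them. Of these symbols, 9 stood in the table as written, and Leprel2 stood there as P3h3, its current symbol, which is used from here on. All 10 had enough counts to be tested.

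Collagen chains are made in the endoplasmic reticulum, where prolyl 4-hydroxylases hydroxylate prolines so that the triple helix is stable at body temperature, and lysyl hydroxylases prepare the lysines that later carry cross-links. The chaperone HSP47, made from Serpinh1, binds the folded helix until it leaves for the Golgi. Outside the cell, proteinases remove the propeptides and copper-dependent lysyl oxidases join the molecules into fibres, which give the arterial wall and the cap of an atherosclerotic plaque their tensile strength.

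The study sequenced polyadenylated RNA from the intima of the mouse thoracic aorta, lysed by passing reagent through the lumen. All mice lacked apolipoprotein E (Apoe-/-), which makes them prone to atherosclerosis, and each library held the pooled intima of 12 to 14 mice of 1 genotype. The ubiquitous progerin group (Apoe-/-LmnaG609G/G609G, 3 libraries) carried on both Lmna copies the change through which cells make progerin, the shortened lamin A of Hutchinson-Gilford progeria. Its control was the wild-type group (Apoe-/-Lmna+/+, 4 libraries). In the VSMC progerin group (Apoe-/-LmnaLCS/LCS SM22Cre, 3 libraries) Cre recombinase driven by the SM22α promoter led to progerin in vascular smooth muscle cells (VSMC). Its control was the lamin C-only group (Apoe-/-LmnaLCS/LCS, 4 libraries), which has the same LCS alleles, makes lamin C but no lamin A, and carries no Cre. The sources used here give no ages or sexes. The design names 3 comparisons: each progerin group against its control, and the control genotypes against each other.

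Library totals lay between 27169784 and 35692385 estimated counts. Wild-type control pool 1 had counts for 14331 genes, the fewest of the 14 libraries. The share of counts from mitochondrially encoded genes was 7.29 to 8.22% in ubiquitous progerin against 4.60 to 5.42% in wild-type control, and 11.5 to 12.1% in VSMC progerin against 3.53 to 4.61% in lamin C-only control. The summed level of 10 endothelial markers was 19776 to 20841 CPM in ubiquitous progerin against 22330 to 24344 CPM in wild-type control, with no overlap. It was 21534 to 22309 CPM in VSMC progerin against 21620 to 23710 CPM in lamin C-only control, with overlap. Pecam1 made up much of the sum, with a mean of 11949 CPM in ubiquitous progerin and 11610 CPM in wild-type control. None of the 10 was at 0 in any library. CPM here is the count divided by the library total, scaled by TMM (trimmed mean of M-values), and multiplied by 1000000. In bulk RNA of this kind, fewer cells of a type and less RNA per cell cannot be told apart.

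All 10 genes are annotated as protein coding on GRCm38 (GENCODE M21). Serpinh1 lies on chromosome 7 (99345376 to 99353239, minus strand), P4ha1 on chromosome 10 (59323296 to 59373304, plus) and P4ha2 on chromosome 11 (54100095 to 54131665, plus). Plod1 lies on chromosome 4 (147909753 to 147936767, minus), Plod2 on chromosome 9 (92542223 to 92608428, plus) and Pcolce on chromosome 5 (137605103 to 137613784, minus). Bmp1 (70474558 to 70520234, minus) and Loxl2 (69609068 to 69695834, plus) are both on chromosome 14. Loxl3 (83034173 to 83052562, plus) and P3h3 (124841089 to 124857752, minus) are both on chromosome 6.

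RefSeq start sites on GRCm38.p6 gave the 250 bases upstream for 6 of the 10 genes: Serpinh1, P4ha1, P4ha2, Plod1, Pcolce and P3h3. The promoters of Serpinh1, P4ha1 and P4ha2 are printed because these 3 genes had the largest falls of the 10 in ubiquitous progerin, and because each holds ACGTG, the core of the hypoxia response element. Capitals mark that match, read on either strand, so that CACGT is ACGTG on the opposite strand. Sequences run 5′ to 3′ on the strand of the gene, from chr7:99353240-99353489 (minus strand), chr10:59323046-59323295 (plus strand) and chr11:54100674-54100923 (plus strand).
Serpinh1: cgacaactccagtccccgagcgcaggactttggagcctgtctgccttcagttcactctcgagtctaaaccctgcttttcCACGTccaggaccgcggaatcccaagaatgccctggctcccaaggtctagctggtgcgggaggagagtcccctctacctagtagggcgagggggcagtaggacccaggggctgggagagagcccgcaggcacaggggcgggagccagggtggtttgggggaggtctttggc
P4ha1: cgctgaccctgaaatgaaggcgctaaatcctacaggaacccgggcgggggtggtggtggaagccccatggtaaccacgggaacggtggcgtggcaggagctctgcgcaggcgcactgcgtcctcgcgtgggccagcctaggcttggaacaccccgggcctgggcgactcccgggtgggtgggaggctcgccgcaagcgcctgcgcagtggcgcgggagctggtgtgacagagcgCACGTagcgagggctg
P4ha2: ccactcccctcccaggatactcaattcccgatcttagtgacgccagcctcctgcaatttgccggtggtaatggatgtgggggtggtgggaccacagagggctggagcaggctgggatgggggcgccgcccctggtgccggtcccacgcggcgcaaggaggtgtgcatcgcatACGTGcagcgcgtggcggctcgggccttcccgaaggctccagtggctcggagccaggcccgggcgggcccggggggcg
The match ended 167 bases before the start in Serpinh1, 12 in P4ha1 and 74 in P4ha2. ACGTG was not among the letters of the Plod1, Pcolce and P3h3 windows, and 16.6% of the 32851 RefSeq promoters of this length held it on either strand. The printed promoters were chosen by both fall and motif, and Plod2, Bmp1 and Loxl2, which also fell, had no window. A relation of ACGTG to the changes was not tested. The GC box GGGCGG stood in every one of the 6 windows except that of P3h3, against 32.7% of all promoters. TATAAA was found only in that of Plod1 (12.4% of all promoters), while CCAAT (33.8%) and the heat shock element GAANNTTC (6.69%) were in none of the 6. The GC content of the 6 windows was 56.0 to 70.0%, against a median of 52.4% over all promoters.

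Levels per kilobase (kb) of annotated exon set the genes in order. In ubiquitous progerin, P3h3 stood first at 60.4 ± 1.9 CPM per kb and Serpinh1 second at 48.6 ± 2.4 CPM per kb (SD, n = 3). In the other groups Serpinh1 stood first, at 145 ± 8.6 CPM per kb in VSMC progerin (n = 3), 81.2 ± 3.1 in the lamin C-only group and 77.2 ± 4.3 in wild-type control (n = 4 each), with P3h3 second, at 66.3 ± 1.9 CPM per kb in wild-type control. After these in wild-type control came P4ha2 at 24.3 ± 5.5, Plod1 at 13.8 ± 0.84, P4ha1 at 10.8 ± 0.68 and Bmp1 at 9.56 ± 0.78 CPM per kb. Plod2 (7.18 ± 0.38), Pcolce (4.15 ± 0.81), Loxl3 (1.37 ± 0.36) and Loxl2 (0.726 ± 0.040 CPM per kb) were lowest there. Neighbours in the wild-type order had separate library ranges, apart from P4ha1 and Bmp1, whose ranges overlapped. Lox, the founding lysyl oxidase, stood above all 10 genes in wild-type control at 91.7 ± 3.7 CPM per kb.

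**Figure D1:**
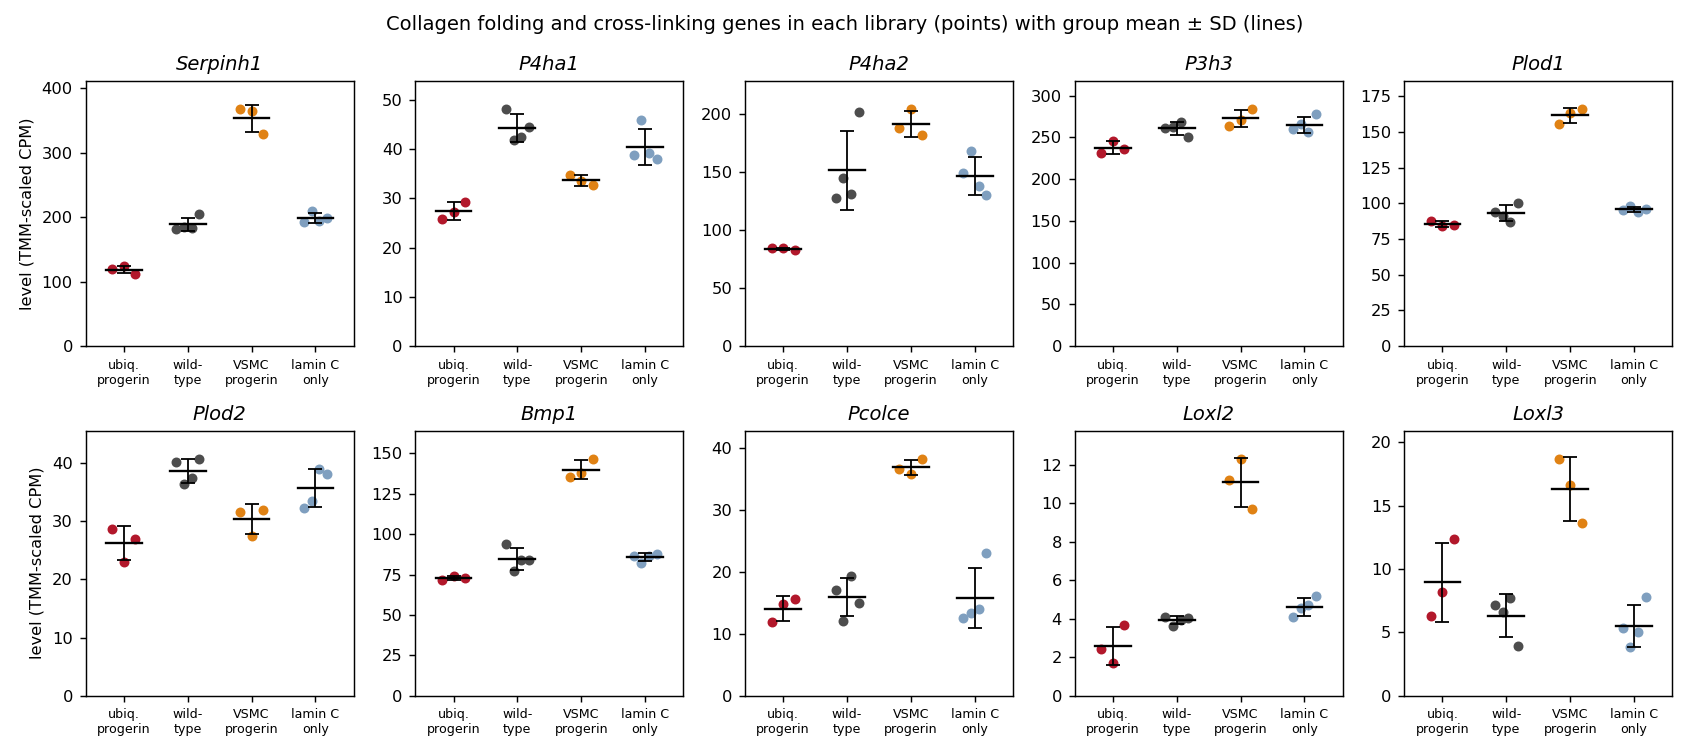
Level of each of the 10 genes in the 14 libraries, in TMM-scaled CPM, on linear axes from 0. Points are libraries, long lines are group means and bars are SD. Serpinh1 lies at 112 to 124 CPM in ubiquitous progerin and 329 to 367 CPM in VSMC progerin, on opposite sides of both control groups.

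In ubiquitous progerin, 7 of the 10 genes fell relative to wild-type control, none rose, and 3 did not pass the test (edgeR's quasi-likelihood test, Benjamini-Hochberg adjusted p under 0.05). Over all 14269 genes tested, 28.3% fell and 26.3% rose, 54.6% in all. The median log2 change of the 10 genes was -0.39, against -0.00 over all genes. The falls were in the folding chaperone, in both prolyl 4-hydroxylases, in Plod2, Bmp1, Loxl2 and P3h3. Library ranges were separate for 6 of the 10, as for 56.4% of all genes.

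Serpinh1 had 120.1, 124 and 112 CPM in ubiquitous progerin pools, against 182, 185, 183 and 204 CPM in wild-type pools. All ubiquitous progerin pools lay below all wild-type pools, a 1.59-fold lower level (log2 change -0.67 ± 0.06 SE, edgeR adjusted p = 2.2e-08). P4ha1, the main catalytic subunit of prolyl 4-hydroxylase in most tissues, had 25.9, 27.1 and 29.3 CPM in ubiquitous progerin against 48.1, 41.8, 42.6 and 44.5 CPM in wild-type control. Its groups were separate as well, with a level 1.61-fold lower (-0.69 ± 0.08, edgeR adjusted p = 5.7e-07). P4ha2, the second catalytic subunit, had 84.3, 84.3 and 82.6 CPM in ubiquitous progerin and 128, 145, 131 and 202 CPM in wild-type control. The ubiquitous progerin pools were close together and the wild-type pools were spread by pool 4, and P4ha2 was 1.81-fold lower (-0.86 ± 0.14, edgeR adjusted p = 0.00016).

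The lysyl hydroxylases differed from each other. Plod2, which hydroxylates lysines in the telopeptides and so sets the type of cross-link, had 28.7, 23.0 and 26.95 CPM in ubiquitous progerin against 40.2, 36.4, 37.5 and 40.7 CPM in wild-type control. These groups did not overlap, and Plod2 fell by 0.56 ± 0.09 on the log2 scale (edgeR adjusted p = 4e-05). Plod1, which hydroxylates lysines within the helix, had 87.5, 84.0 and 84.9 CPM in ubiquitous progerin and 94.1, 90.8, 87.1 and 100.4 CPM in wild-type control. The ranges overlapped, and Plod1 did not pass the test (-0.12 ± 0.06, edgeR adjusted p = 0.073), though it did without wild-type pool 3 (-0.15, adjusted p = 0.034). P3h3, a prolyl 3-hydroxylase family member that in mice acts in a complex with lysyl hydroxylase 1, the Plod1 product, had 231, 246 and 236 CPM in ubiquitous progerin against 262, 263, 268 and 249.97 CPM in wild-type control. The groups were separate, but the change was small (-0.13 ± 0.05, edgeR adjusted p = 0.039). That call was lost without ubiquitous progerin pool 1 or 3 or wild-type pool 1, 2 or 3 (-0.13 to -0.11, adjusted p 0.056 to 0.16) and under 5 of 8 other settings (adjusted p 0.05 to 0.076).

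Among the extracellular steps, Bmp1, the procollagen C-proteinase that also activates the lysyl oxidase precursor, had 71.3, 74.4 and 72.9 CPM in ubiquitous progerin and 93.9, 77.1, 84.1 and 84.0 CPM in wild-type control. Its groups were separate and it was 1.16-fold lower (-0.22 ± 0.06, edgeR adjusted p = 0.0062). Pcolce, which enhances that proteinase, had 11.9, 14.7 and 15.6 CPM in ubiquitous progerin and 17.0, 12.1, 19.4 and 15.02 CPM in wild-type control. The pools overlapped and Pcolce did not pass (-0.17 ± 0.20, edgeR adjusted p = 0.48). The low-level lysyl oxidase relatives were less certain. Loxl2 had 2.46, 1.71 and 3.67 CPM in ubiquitous progerin against 4.11, 3.62, 3.94 and 4.03 CPM in wild-type control. Ubiquitous progerin pool 3 reached the wild-type range, and the fall (-0.59 ± 0.22, edgeR adjusted p = 0.029) was -0.36 without ubiquitous progerin pool 2 (adjusted p = 0.18) and -0.91 without pool 3. The Loxl2 call was also lost without ubiquitous progerin pool 1 or wild-type pool 4 and in 2 other settings (adjusted p 0.05 to 0.086). Loxl3 had 6.31, 8.16 and 12.4 CPM in ubiquitous progerin and 7.12, 6.57, 7.68 and 3.91 CPM in wild-type control, which overlapped (0.50 ± 0.27, edgeR adjusted p = 0.12; without ubiquitous progerin pool 1, 0.71 with adjusted p = 0.047).

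Marker lists also differed between these groups, in which 26.3% of all genes tested rose and 28.3% fell. Fibroblast markers summed to 1247 to 1294 CPM in ubiquitous progerin against 1729 to 1937 CPM in wild-type control, with 4 of 10 lower and 1 higher (Cd34 and Ly6a of this list are also made by endothelium). Smooth muscle markers summed to 955 to 1001 CPM in ubiquitous progerin against 525 to 864 CPM in wild-type control, with 5 of 10 lower and 1, Tagln, higher. Macrophage markers summed to 887 to 1225 CPM in ubiquitous progerin against 154 to 195 CPM in wild-type control, with 9 of 10 higher. Of 10 endothelial markers 6 were lower and 2 higher. Adipocyte markers summed to 313 to 597 CPM in ubiquitous progerin against 178 to 251 CPM in wild-type control (1 of 8 higher), and lymphocyte markers to 5.26 to 13.4 CPM against 3.17 to 5.31 CPM (1 higher and 1 lower of 7 tested). No marker was at 0 in every library of a group, and Lep and several lymphocyte markers were at 0 in some. Their part in the changes of the collagen genes was not tested.

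In VSMC progerin, 7 of the 10 genes rose relative to lamin C-only control, 2 fell (P4ha1 and Plod2) and 1 did not pass the test (P3h3). Of all genes tested, 19.0% rose and 23.0% fell, 42.0% in all. The median log2 change was 0.73 for the 10 genes and -0.03 over all genes. Groups were separate for 9 of the 10 genes, and for 45.5% of all genes.

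Serpinh1 had 367, 364 and 329 CPM in VSMC progerin against 192, 209, 194 and 199 CPM in lamin C-only control. Every VSMC progerin pool stood far above the controls, a 1.78-fold rise (0.83 ± 0.06, edgeR adjusted p = 1.3e-09). Plod1 had 156, 163 and 166 CPM in VSMC progerin and 95.1, 98.1, 93.9 and 96.0 CPM in lamin C-only control. It rose 1.69-fold with no overlap (0.76 ± 0.06, edgeR adjusted p = 1.5e-09). Bmp1 had 135, 138 and 146 CPM in VSMC progerin and 86.2, 82.0, 86.8 and 87.9 CPM in lamin C-only control, again separate, with a 1.63-fold rise (0.71 ± 0.06, edgeR adjusted p = 1.7e-08).

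The proteinase enhancer and the lysyl oxidase relatives, low in the controls, had the largest fold changes of the 10 genes here. Pcolce had 36.5, 35.8 and 38.2 CPM in VSMC progerin against 12.6, 13.3, 14.1 and 23.0 CPM in lamin C-only control. Control pool 4 was the highest of its group yet below every VSMC progerin pool, and the rise was 2.34-fold (1.23 ± 0.19, edgeR adjusted p = 0.0001). Loxl2 had 11.2, 12.3 and 9.73 CPM in VSMC progerin and 4.08, 4.54, 4.72 and 5.18 CPM in lamin C-only control, a 2.40-fold rise (1.26 ± 0.20, edgeR adjusted p = 4.4e-05). Loxl3 had 18.7, 16.6 and 13.6 CPM in VSMC progerin and 5.34, 3.82, 4.99 and 7.81 CPM in lamin C-only control, a 2.97-fold rise (1.57 ± 0.26, edgeR adjusted p = 0.00016). Both lysyl oxidase relatives were higher in every VSMC progerin pool than in any control pool.

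The prolyl 4-hydroxylase subunits went in opposite directions. P4ha2 had 188, 204 and 182 CPM in VSMC progerin against 149, 168, 138 and 130.5 CPM in the lamin C-only pools, and it rose with no overlap (0.39 ± 0.13, edgeR adjusted p = 0.035). P4ha1 had 34.8, 33.5 and 32.7 CPM in VSMC progerin against 38.8, 45.9, 39.1 and 38.0 CPM in the lamin C-only group, and it fell with no overlap (-0.26 ± 0.08, edgeR adjusted p = 0.012). The P4ha2 call was lost without VSMC progerin pool 1, 2 or 3, without lamin C-only pool 1, 3 or 4 (0.34 to 0.42, adjusted p 0.053 to 0.12), and without the filter on low counts. The P4ha1 call was lost without lamin C-only pool 2 (-0.20, adjusted p = 0.052) and with upper-quartile scaling (-0.19, adjusted p = 0.06).

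Plod2 had 31.6, 27.5 and 32.0 CPM in VSMC progerin and 32.2, 33.5, 39.0 and 38.0 CPM in lamin C-only control, with ranges that nearly met. It passed narrowly (-0.23 ± 0.09, edgeR adjusted p = 0.048), and lost the call without VSMC progerin pool 1 or 2 or lamin C-only pool 3 or 4 (-0.24 to -0.17, adjusted p 0.088 to 0.2) and under 6 of 8 other settings (adjusted p 0.061 to 0.18). P3h3 had 263, 271 and 283 CPM in VSMC progerin and 260.0, 266, 256 and 278 CPM in lamin C-only control. The pools overlapped, and no change was detected beyond the variation between pools (0.04 ± 0.05, edgeR adjusted p = 0.56).

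Here too marker lists moved, where 19.0% of all genes tested rose and 23.0% fell. Fibroblast markers summed to 3425 to 4215 CPM in VSMC progerin against 1777 to 1964 CPM in lamin C-only control, with 7 of 10 higher and none lower. Macrophage markers summed to 586 to 678 CPM in VSMC progerin against 159 to 208 CPM in lamin C-only control, with 9 of 10 higher and 1 lower. Adipocyte markers summed to 1115 to 1439 CPM in VSMC progerin against 170 to 775 CPM in lamin C-only control (6 of 8 higher), and the control pool with 775 CPM was pool 4, the one with the most Pcolce. Smooth muscle markers summed to 340 to 407 CPM in VSMC progerin against 435 to 599 CPM in lamin C-only control, with 4 of 10 lower. Endothelial markers were 5 higher and 4 lower of 10, and lymphocyte markers 2 higher of 7 tested, at 8.91 to 12.1 CPM in VSMC progerin against 2.54 to 5.31 CPM in lamin C-only control. The part of these lists in the changes of the collagen genes was not tested.

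**Figure D2:**
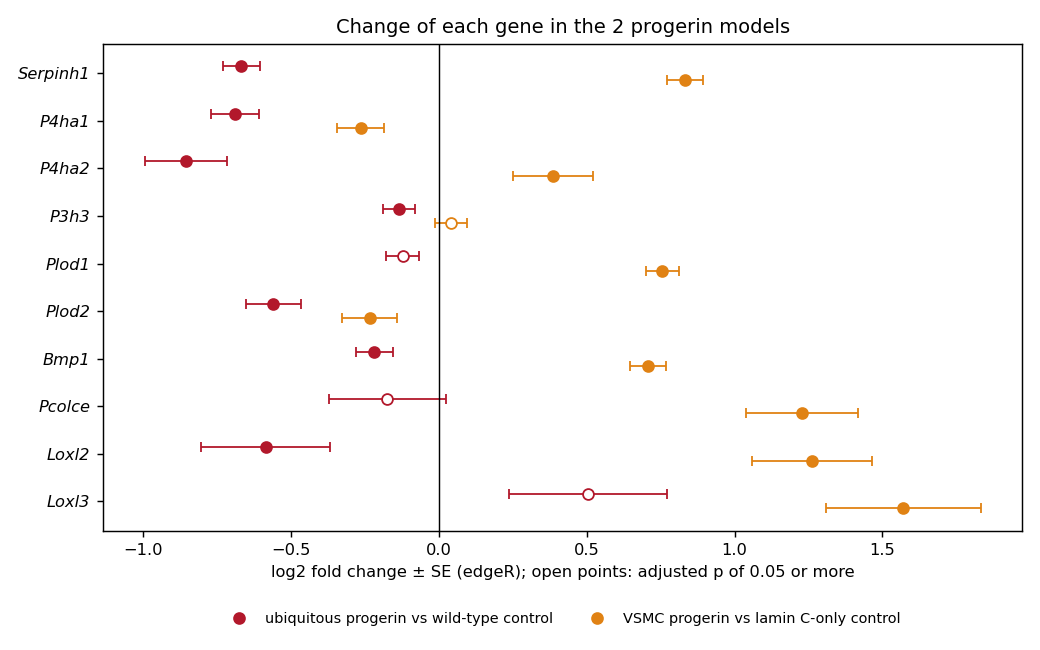
Log2 fold change of each gene, with its SE as bars, in ubiquitous progerin over wild-type control and in VSMC progerin over lamin C-only control. Filled points passed the edgeR test at an adjusted p under 0.05 and open points did not. Serpinh1 lies at -0.67 in ubiquitous progerin and 0.83 in VSMC progerin, whereas P4ha1 and Plod2 are below 0 in both.

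The effect of ubiquitous progerin minus that of VSMC progerin, each against its own control libraries, was tested directly. It was called negative for 9 of the 10 genes and positive for none, while 21.8% of all genes had a negative and 22.4% a positive difference, 44.2% in all. Its median was -0.996 over the 10 genes. The difference was -1.50 ± 0.09 for Serpinh1 (edgeR adjusted p = 8.1e-11), -0.93 ± 0.09 for Bmp1 (adjusted p = 6.1e-08) and -0.88 ± 0.08 for Plod1 (adjusted p = 3.1e-08). Loxl2 differed by -1.85 ± 0.30 (adjusted p = 4.3e-05), Pcolce by -1.40 ± 0.28 (adjusted p = 0.00073) and P4ha2 by -1.24 ± 0.19 (adjusted p = 0.00016). For P4ha1, lower in both models, the difference was -0.42 ± 0.11 (edgeR adjusted p = 0.0047), so the fall was larger in ubiquitous progerin.

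Loxl3 (-1.07 ± 0.38, edgeR adjusted p = 0.03) and Plod2 (-0.33 ± 0.13, adjusted p = 0.049) passed the same test less firmly. The Loxl3 difference was not called without ubiquitous progerin pool 1 or 2, wild-type pool 1, 2 or 3, VSMC progerin pool 1 or 2, or lamin C-only pool 1, 2 or 3 (-1.05 to -0.89, adjusted p 0.051 to 0.076), nor under 1 of 7 other settings, the block for pool number (-1.10, adjusted p = 0.057). That of Plod2 was not called without ubiquitous progerin pool 2 or 3, wild-type pool 1, 3 or 4, VSMC progerin pool 1 or 3, or lamin C-only pool 1 or 2 (-0.36 to -0.24, adjusted p 0.054 to 0.16), nor under 3 of 7 other settings. P3h3 did not pass (-0.18 ± 0.08, adjusted p = 0.064), but did without wild-type pool 4, VSMC progerin pool 1 or lamin C-only pool 4 (adjusted p 0.033 to 0.049) and under 3 of 7 other settings.

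Serpinh1, P4ha2, Bmp1 and Loxl2 fell in ubiquitous progerin and rose in VSMC progerin, as did 4.27% of all genes. P4ha1 and Plod2 fell in both, as did 8.63% of all genes. Plod1, Pcolce and Loxl3 rose in VSMC progerin and did not pass in ubiquitous progerin.

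None of the 10 genes was called between the lamin C-only and wild-type controls (0.175% of all genes were). Their log2 changes ran from -0.20 for Loxl3 to 0.24 for Loxl2, and the lowest edgeR adjusted p was 0.76. None had an unadjusted p under 0.05 by edgeR, DESeq2, limma voom or limma on the deposited log2 values, and the control ranges of every one of the 10 overlapped (4.97% of all genes had separate ranges). The SE of these log2 changes was between 0.05 for P3h3 and 0.25 for Loxl3.

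Ratios within a library were taken of CPM, not corrected for length, and so serve only to compare groups; no test was run on them. Plod2 over Plod1 was 0.307 ± 0.029 in ubiquitous progerin (SD, n = 3) against 0.416 ± 0.015 in wild-type control (n = 4), and 0.188 ± 0.018 in VSMC progerin against 0.373 ± 0.038 in lamin C-only control. The telopeptide hydroxylase was thus lower relative to the helical one in every progerin pool than in any pool of its control. P4ha1 over P4ha2 was 0.328 ± 0.025 in ubiquitous progerin and 0.302 ± 0.065 in wild-type control, which overlapped, and 0.176 ± 0.011 in VSMC progerin against 0.277 ± 0.014 in lamin C-only control, which did not.

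The substrates of these proteins were compared in the same way. The 11 fibrillar collagen chains summed to 816 ± 20 CPM in ubiquitous progerin against 1117 ± 82 CPM in wild-type control, and to 3277 ± 94 CPM in VSMC progerin against 1070 ± 51 CPM in lamin C-only control. The chains did not change alike. Col5a2 averaged 299 against 528 CPM in the first comparison and 1521 against 507 CPM in the second. Col5a1 averaged 275 against 274 CPM and 263 against 268 CPM. The sum is not corrected for chain length, so it also depends on the mix of chains. Serpinh1 per summed fibrillar chain was 0.146 ± 0.011 in ubiquitous progerin and 0.169 ± 0.013 in wild-type control, which overlapped. In VSMC progerin it was 0.108 ± 0.005, against 0.186 ± 0.013 in lamin C-only control, with no overlap. The chaperone therefore rose in VSMC progerin while its level per fibrillar chain was lower. A ratio to all collagen chains was not taken, so its level per collagen chain as a whole is not given. Of the hydroxylases, P4ha1 per summed chain was 0.0315 to 0.0353 in ubiquitous progerin against 0.0379 to 0.0414 in wild-type control. P4ha2 per summed chain was 0.0994 to 0.106 in ubiquitous progerin against 0.108 to 0.172 in wild-type control, so both were lower with no overlap. Plod1 went the other way, at 0.102 to 0.106 in ubiquitous progerin against 0.0793 to 0.0898 in wild-type control, with no overlap. Plod1 itself did not rise (-0.12, edgeR adjusted p = 0.073). The higher ratio came with the lower fibrillar sum, 816 against 1117 CPM, which raises the ratio of any gene that does not change. All 3 hydroxylases were lower per fibrillar chain in every VSMC progerin pool than in any lamin C-only pool. The fibrillar sum itself was 3277 CPM in VSMC progerin against 1070 CPM in lamin C-only control. A gene that rose less than this sum, Serpinh1 included, therefore has a lower ratio. The share of all genes with such a lower ratio was not counted. Means were 0.0103 in VSMC progerin against 0.0379 in lamin C-only control for P4ha1, 0.0585 in VSMC progerin against 0.138 in the control for P4ha2, and 0.0494 in VSMC progerin against 0.0897 in the control for Plod1.

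**Figure D3:**
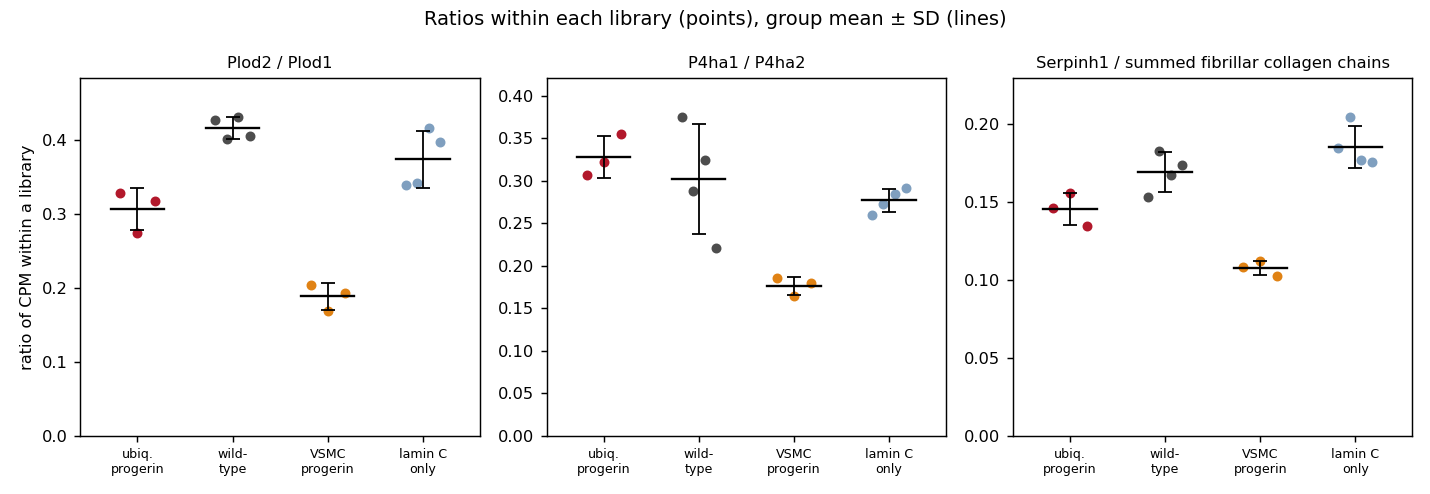
Ratios of CPM within each library for Plod2 over Plod1, P4ha1 over P4ha2, and Serpinh1 over the summed fibrillar collagen chains, on linear axes from 0. Points are libraries, long lines group means and bars SD. VSMC progerin lies lowest in all 3 panels, at 0.188, 0.176 and 0.108 on average.

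Of the fibrillar chains, 9 were tested: 6 rose and none fell in VSMC progerin (median log2 change 1.59), while 1 rose and 2 fell in ubiquitous progerin (median -0.20). Of all genes tested, 19.0% rose and 23.0% fell in VSMC progerin, and 26.3% rose and 28.3% fell in ubiquitous progerin. Col1a1, a chain of type I collagen, had 470.4, 411 and 361 CPM in VSMC progerin against 13.4, 11.2, 18.7 and 26.7 CPM in lamin C-only control (4.57 ± 0.41, edgeR adjusted p = 6.5e-06). In ubiquitous progerin it had 34.6, 13.3 and 23.5 CPM, against 16.9, 30.1, 13.1 and 14.6 CPM in wild-type control, with overlap (0.35 ± 0.40, adjusted p = 0.49). Col5a2, a chain of type V collagen, fell in ubiquitous progerin (-0.82 ± 0.06, edgeR adjusted p = 2e-09) and rose in VSMC progerin (1.59 ± 0.06, adjusted p = 2.8e-13). Of 8 network-forming chains tested, 1 rose and 5 fell in ubiquitous progerin, and 4 rose and 4 fell in VSMC progerin. Col4a1, a basement membrane chain, fell in ubiquitous progerin (-0.88 ± 0.06, edgeR adjusted p = 9.4e-10). In VSMC progerin Col4a1 was higher with no overlap, at 1124 to 1156 CPM against 776 to 884 CPM in lamin C-only control. Col4a3 fell in both models (-1.75 ± 0.10 in ubiquitous progerin and -2.17 ± 0.10 in VSMC progerin).

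Other genes of folding, hydroxylation and export numbered 17, of which 16 were tested. In ubiquitous progerin 6 rose and 6 fell (median -0.14), and in VSMC progerin 8 rose and 1 fell (median 0.11). The shares called over all genes tested were 54.6% in ubiquitous progerin and 42.0% in VSMC progerin. P4ha3, the third catalytic subunit of prolyl 4-hydroxylase, rose in both models, unlike P4ha1 and P4ha2. It had 15.4, 12.2 and 17.4 CPM in ubiquitous progerin against 3.83, 3.49, 3.45 and 1.75 CPM in wild-type control (2.26 ± 0.25, edgeR adjusted p = 1.5e-06). In VSMC progerin it had 29.8, 30.5 and 35.8 CPM, against 2.96, 1.62, 2.41 and 3.83 CPM in lamin C-only control (3.56 ± 0.25, edgeR adjusted p = 2e-08). Fkbp10, which encodes a prolyl isomerase partner of HSP47, rose by 0.68 ± 0.06 in VSMC progerin (edgeR adjusted p = 2.5e-08). Mia3, which loads procollagen into carriers leaving the endoplasmic reticulum, fell by 0.54 ± 0.06 there (adjusted p = 6.8e-07). Sec24d, a coat protein of those carriers, fell by 0.47 ± 0.07 in ubiquitous progerin (edgeR adjusted p = 6.1e-06).

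Other proteinases and cross-linking genes numbered 10, of which 9 were tested. In ubiquitous progerin 1 rose and 4 fell (median -0.62), against 54.6% of all genes tested called there. In VSMC progerin 4 rose and 2 fell (median 0.43), against 42.0% of all genes called there. Lox had 220.3, 240.1 and 252 CPM in ubiquitous progerin against 426, 439, 425 and 462 CPM in wild-type control (-0.88 ± 0.06, edgeR adjusted p = 1.8e-10). It had 589, 628 and 596 CPM in VSMC progerin against 446, 437, 445 and 416 CPM in lamin C-only control (0.47 ± 0.06, edgeR adjusted p = 1.2e-06), so it fell in one model and rose in the other. Pcolce2, the second proteinase enhancer, had 68.5, 72.4 and 73.3 CPM in ubiquitous progerin against 352, 282, 348 and 355 CPM in wild-type control (-2.23 ± 0.08, edgeR adjusted p = 5.6e-14). In VSMC progerin it had 176, 169 and 182 CPM, against 327, 366, 323 and 336 CPM in lamin C-only control (-0.95 ± 0.07, edgeR adjusted p = 3.4e-09). Pcolce2 thus fell in both models, whereas Pcolce rose in VSMC progerin. Adamts2, the procollagen N-proteinase, rose by 1.88 ± 0.18 in VSMC progerin (edgeR adjusted p = 6.9e-08), and Loxl1, which cross-links elastin, by 1.35 ± 0.16 (adjusted p = 8.3e-07). No gene of these lists was called between the control genotypes.

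**Figure D4:**
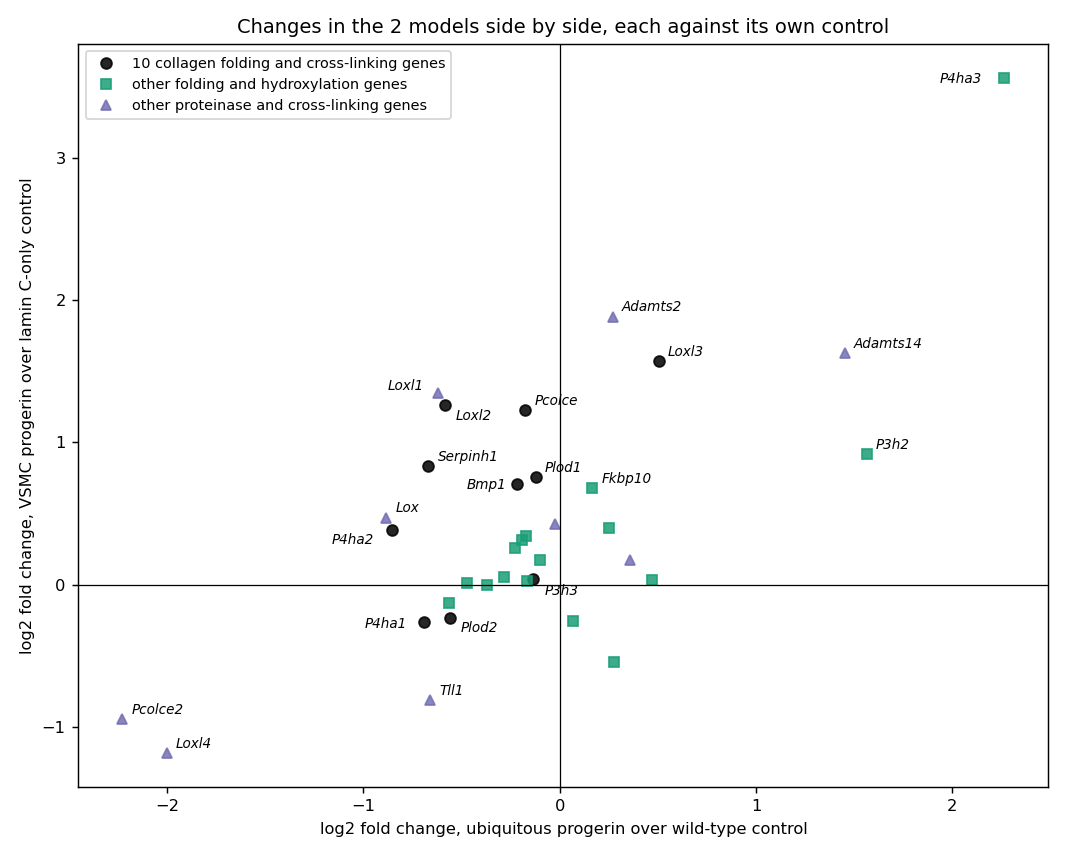
Log2 fold change in ubiquitous progerin over wild-type control (horizontal) against that in VSMC progerin over lamin C-only control (vertical), 1 point per gene, for the 10 genes and the other tested genes of folding, hydroxylation, propeptide removal and cross-linking. Axes are log2 scales and the lines mark 0. P4ha3 is at the top right (2.26 and 3.56), Serpinh1 and Lox at the upper left, and Pcolce2 at the lower left.

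Profiles across the 14 libraries were compared by the root mean square difference of centred log2 CPM, a measure that uses no group labels. The profiles still hold the differences between groups, so nearness partly restates the changes given above. Among 9617 genes searched, Bmp1 was the second nearest to Plod1 (0.08) and Plod1 was the nearest to Bmp1. The nearest profiles to Serpinh1 were those of B3gnt3 (0.07), Mgp (0.12) and Dynll1 (0.12). Pcolce lay closest to Col1a2, a type I collagen chain (0.20), followed by Clec3b (0.23). P4ha1 and Plod2 were the second closest pair among the 10 genes (0.15), and P4ha1 and Loxl3 the farthest apart (0.86). The measure is not scaled to how much a gene varies, so genes that vary little lie close together. The root mean square of the centred profile itself was 0.27 for P4ha1, 0.24 for Plod2 and 0.69 for Loxl3. All these profiles share the same libraries and their scaling.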

How the data were processed

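RNA was sequenced from 14 pools of aortic intima in 4 genotype groups taken from the labels. The authors deposited estimated counts per gene and normalised log2 values for 13034 genes. Reads had been trimmed and quantified on GRCm38 with STAR 2.7.10b, RSEM 1.2.28, cutadapt 4.1, Trim Galore 0.6.10 and limma, names that come from the submitters' processing notes. The sources used here give neither strand setting nor annotation release. RSEM divides reads that fit several genes by a model, which can shift counts between related genes.

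Counts were rounded and filtered with filterByExpr (minimum count 10, minimum total 15, share 0.7), leaving 14269 genes. They were scaled by TMM and tested with edgeR 4.0.16 (R 4.3.3) in 1 quasi-likelihood fit of the 14 libraries, 1 mean per genotype, adjusted by Benjamini-Hochberg over all genes tested. SE is the absolute log2 change over the square root of the F statistic. The steps were tested on simulated data. P-values weigh each difference between groups against the variation between pools. Each pool combines 12 to 14 mice, so the variation between single mice was not measured. The pool numbers did not pair the libraries.

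Alternatives were DESeq2 1.42.0, upper-quartile scaling, no mitochondrially encoded genes, no filter, limma voom and limma 3.58.1 on the deposited log2 values, only the groups compared, a block for pool number, and leaving out each library. Exon lengths and positions came from GENCODE M21. The 10 genes and the lists were chosen with earlier results of these data known. From each list the called genes with the smallest p, at most 4 per comparison, could be named. So could the 3 profiles nearest to each of the 10 genes, searched among genes with a mean log2 CPM of 3 or more. Fewer are named.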

Additional observations from a re-analysis of the deposited data

Results flagged for a closer look

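In groups of 4 libraries, 1 library stood far from the other 3 for 3 of 20 gene and group pairs examined; chance alone gives about 1 in 20. Serpinh1 was 204 CPM in wild-type control pool 4, P4ha1 was 45.9 CPM in lamin C-only control pool 2, and Pcolce was 23.0 CPM in lamin C-only control pool 4. Leaving these pools out did not end the calls of Serpinh1 and Pcolce, while the P4ha1 call in VSMC progerin was lost without lamin C-only control pool 2.

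The effects of ubiquitous progerin and VSMC progerin differed by edgeR's test of the difference for 9 genes. The differences, ubiquitous progerin effect minus VSMC progerin effect on the log2 scale, were -1.50 for Serpinh1, -0.42 for P4ha1, -1.24 for P4ha2, -0.88 for Plod1 and -0.33 for Plod2. They were -1.40 for Pcolce, -0.93 for Bmp1, -1.85 for Loxl2 and -1.07 for Loxl3. Those of Plod2 and Loxl3 were not called under several alternatives.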

How the results depend on the processing

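Of 670 recomputed values of single genes, 597 kept their direction and their side of the threshold, 57 lost the call, 8 gained one and 8 changed sign. Serpinh1, Bmp1, P4ha1, P4ha2 and Plod2 in ubiquitous progerin, and Serpinh1, Plod1, Pcolce, Bmp1, Loxl2 and Loxl3 in VSMC progerin, kept their calls under every alternative run. The number of the 10 genes called lower in VSMC progerin was 2; it was 1 with DESeq2, without mitochondrially encoded genes, with limma on the deposited log2 values and with only the groups compared, 0 with upper-quartile scaling, and 1 to 2 when a library was left out. The number called higher in ubiquitous progerin was 0 to 1 when a library was left out. Between the controls, 25 genes were called over the whole table, 103 with DESeq2, 40 without the filter, 16 with only those groups, and 8 to 45 when a library was left out. The sign changes were all between the controls, in genes not called: Pcolce ran from -0.25 to 0.10, Bmp1 from -0.0271 to 0.0683 and P4ha2 from -0.12 to 0.12 when a library was left out; the cause was not tested. With a block for pool number, 1 of the 10 genes was called lower in VSMC progerin and 7536 genes were called in ubiquitous progerin (7784 without it). Libraries of the same pool number did not deviate together (correlation -0.05 to 0.02), and 2 of 10 pairs matched best by number. No scaling moved the median of all genes by over 0.1. Loxl2 and Loxl3, with few counts, had the widest errors of the 10 genes.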

Other observations

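General chaperones of the endoplasmic reticulum, which fold many secreted proteins and not collagen alone, were also examined. In ubiquitous progerin 3 of 14 rose and 5 fell (median log2 change -0.04), where 54.6% of all genes tested were called. In VSMC progerin 8 rose and none fell (median log2 change 0.22), where 19.0% of all genes rose and 23.0% fell. Pdia4, a disulfide isomerase, fell in ubiquitous progerin (-0.60 ± 0.06) and rose in VSMC progerin (0.34 ± 0.05). Sdf2l1, a cofactor of the chaperone BiP, rose in both, by 1.14 ± 0.18 in ubiquitous progerin and by 1.06 ± 0.18 in VSMC progerin.

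Among 14 hypoxia-induced genes, 6 rose and 4 fell in ubiquitous progerin (median log2 change 0.35), where 54.6% of all genes tested were called. In VSMC progerin 3 rose and 5 fell (median -0.07), where 42.0% of all genes were called. They did not move together. Bnip3 had 144 to 172 CPM in ubiquitous progerin against 37.2 to 45.3 CPM in wild-type control. Kdm3a had 159 to 161 CPM in ubiquitous progerin against 102 to 123 CPM in wild-type control. Slc2a1, a glucose transporter, rose by 1.41 ± 0.08 in ubiquitous progerin and fell by 0.36 ± 0.09 in VSMC progerin. Vegfa, an endothelial growth factor, fell by 0.65 ± 0.10 in ubiquitous progerin (133 to 155 CPM, against 189 to 256 CPM in wild-type control) and rose by 0.94 ± 0.10 in VSMC progerin. Egln1, an oxygen-sensing prolyl hydroxylase, fell by 0.53 ± 0.08 in ubiquitous progerin and by 0.39 ± 0.08 in VSMC progerin.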
